A study of Mus musculus with 4 samples.

Results

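The genes described here are 40 genes of DNA replication and S phase, chosen by symbol from a written list that covers origin licensing, the MCM helicase, the polymerases, the sliding clamp, nucleotide supply, chromatin assembly and S-phase entry. All 40 symbols were found among the 48587 gene symbols of the count table. The table holds mRNA-seq read counts from mouse primary vascular smooth muscle cells (VSMCs), which were grown out of the descending aorta of C57BL/6J mice aged 8 to 12 weeks. Before outgrowth the adventitia was removed with enzymes and the endothelium was scraped off. The shCTR group carried a lentivirus with a nontargeting hairpin directed at a plant microRNA, in a vector that also encodes GFP, and the shMettl14 group carried a lentivirus with a single hairpin against *Mettl14*. *Mettl14* encodes a subunit of the enzyme complex that writes N6-methyladenosine on mRNA. Each group had 2 libraries, with the letters A and B, and the labels do not say what a letter marks. Whether the libraries of a group came from separate cultures or animals is also not stated, so the p-values below measure the spread between these libraries, which may be technical.

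Eukaryotic cells copy their DNA once per division. In G1, the origin recognition complex with CDC6 and CDT1 loads the ring-shaped MCM2 to MCM7 helicase onto DNA, and at the start of S phase CDC45 and the GINS complex switch that helicase on so that the primase and the polymerases can follow. Most genes of this machinery are targets of the E2F transcription factors. These are held back by the retinoblastoma proteins in resting cells and released as cyclin-dependent kinases become active in G1. Contractile VSMCs in a healthy artery rarely divide, whereas cultured VSMCs and those of an injured artery re-enter the cycle and express these genes.

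Totals were between 114343653 and 124815868 counts per library, and the number of genes with a count was 25268, 25117 and 24570 in shCTR A, shMettl14 A and shMettl14 B but 21736 in shCTR B. *Mettl14* had 2050 and 2154 counts in shCTR A and B against 546 and 568 in shMettl14 A and B, a log2 fold change of -2.08 (SE 0.25). Across 18916 tested genes, 0 (0%) had an adjusted p under 0.05 in edgeR's quasi-likelihood test, although 191 lower and 124 higher genes had an unadjusted p under 0.05, and DESeq2 gave 5 adjusted calls among 29127 genes, of which 4 were among those tested in edgeR. *Mettl14* itself had an adjusted p of 1 in that edgeR fit and between 3.05e-07 (DESeq2) and 1 over the alternatives tried. Markers of smooth muscle were abundant in every library, with *Acta2* between 2073 and 3547 CPM (read counts scaled to library size by TMM). All 9 endothelial markers were present as well, at summed levels of 1952 and 4097 CPM in shCTR A and B and 1845 and 2546 CPM in shMettl14 A and B, with *Pecam1* between 477 and 820.2 CPM. The labelled cell type was thus accompanied by endothelial transcripts in all 4 libraries. In such bulk samples fewer cells of a type and less RNA per cell cannot be told apart.

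The promoters of these genes were examined for the letters that E2F factors are known to bind. RefSeq promoter windows on GRCm38.p6, each 250 bases before to 50 after an annotated start, were at hand for 32 of the 40 genes (37 windows, since some genes have more than 1 start). The windows were searched on both strands for the E2F words TTTCCCGC, TTTCGCGC, TTTGCCGC and TTTGGCGC. At least 1 word was present in 13 of the 37 windows (35.1%), against 2.26% of all 32851 promoter windows of that length. The stretches below were chosen because they hold the word in genes of the helicase, its loader and its activator, in DNA polymerase alpha and in *Uhrf1*, and the E2F words are in capitals.
Mcm5: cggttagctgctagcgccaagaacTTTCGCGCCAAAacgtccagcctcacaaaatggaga
Mcm6: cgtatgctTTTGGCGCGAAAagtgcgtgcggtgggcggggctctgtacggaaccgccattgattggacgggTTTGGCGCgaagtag
Mcm7: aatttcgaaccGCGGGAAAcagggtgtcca
Orc1: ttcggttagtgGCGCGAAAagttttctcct
Cdc6: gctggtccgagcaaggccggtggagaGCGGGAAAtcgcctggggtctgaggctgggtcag
Gins3: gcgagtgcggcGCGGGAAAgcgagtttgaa
Pola1: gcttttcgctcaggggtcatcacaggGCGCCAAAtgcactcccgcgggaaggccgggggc
Uhrf1: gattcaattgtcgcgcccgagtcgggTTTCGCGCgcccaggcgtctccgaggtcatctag
Mcm3: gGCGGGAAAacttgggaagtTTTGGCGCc

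Each stretch is printed 5′ to 3′ on the strand of its gene, and a word on the other strand appears as its reverse complement. The *Mcm5* stretch is chr8:75109332-75109391 (plus strand) and the *Mcm6* stretch is chr1:128359738-128359823 (minus strand). In both, a TTTCGCGC and a TTTGGCGC on opposite strands overlap to form a single capital block, and *Mcm6* has a further TTTGGCGC nearer its start. The *Mcm7* stretch is chr5:138172030-138172059 (minus), the *Orc1* stretch chr4:108579416-108579445 (plus), the *Cdc6* stretch chr11:98907987-98908046 (plus) and the *Gins3* stretch chr8:95633507-95633536 (plus). The *Pola1* stretch is chrX:93632260-93632319 (minus) and the *Uhrf1* stretch is chr17:56304102-56304161 (plus). These 8 stretches lie before a RefSeq start, and 3 of them (*Mcm7*, *Orc1* and *Gins3*) were kept to 30 bases because GENCODE places an exon there. The *Mcm3* stretch, chr1:20820266-20820294 (minus), lies 19 to 47 bases into the transcript and holds a word on each strand. The other genes with a word were *Rfc3*, *Lig1*, *Pold1* and *Cdt1*, which makes 13 genes and 19 copies in all.

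Beside the E2F words, CCAAT (the letters bound by NF-Y) was present in 56.8% of the members' windows against 37.4% of all windows, and TTTGAA, the core of the cell cycle homology region (CHR) known from late cell cycle genes, in 10.8% against 17.9%. Among the 29 windows of 27 mitosis genes, 3.45% had an E2F word, 79.3% had CCAAT and 79.3% had TTTGAA. The lists nearest to the members in function were closer to them in this respect, with an E2F word in 26.2% of the windows of other replication genes and 31% of those of other E2F and S-phase genes. A match is a run of letters and no measured binding site. Windows for *Gins1*, *Gins2*, *Gins4*, *Mcm4*, *Pole*, *Prim2*, *Rfc2* and *Ccne2* were not used here.

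**Figure D1:**
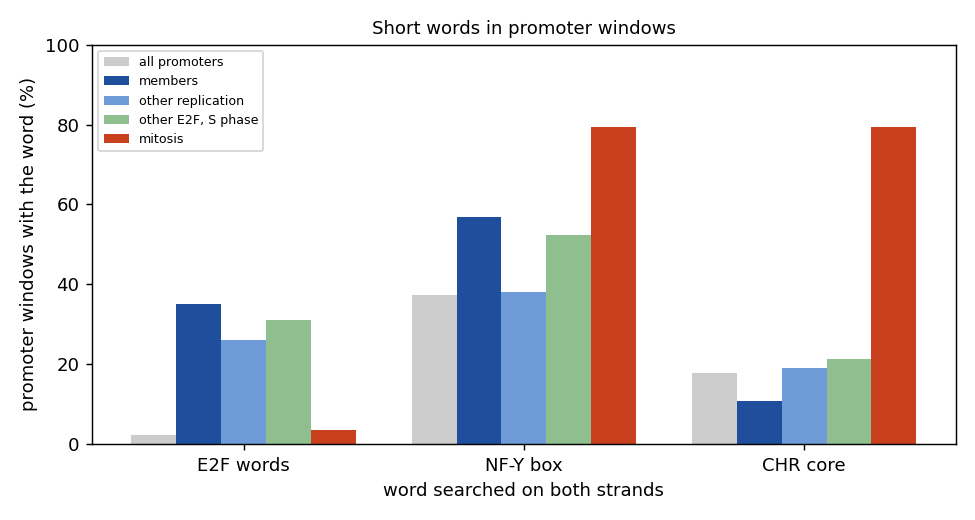
Share of promoter windows (percent, y axis, from 0) that hold an E2F word, the NF-Y box or the CHR core on either strand, for all windows, the replication and S-phase genes, 2 further S-phase lists and mitosis genes. The E2F words stood at 35.1% in the replication genes against 26.2% and 31% in the further S-phase lists and 3.45% in mitosis genes, and the CHR core at 10.8% in the replication genes against 79.3% in mitosis genes.

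All 40 genes passed the filter on low counts, with between 52 counts (*Fen1* in shCTR B) and 13687 counts (*Rrm1* in shCTR B) per library, and 39 of them were above 1 CPM in every library. Levels were also divided by the summed length of all annotated exons of a gene, which can exceed that of the transcript in the cells. On that scale the level was highest for *Pcna*, the sliding clamp, at 23.1 CPM per kb over the 4 libraries. It was followed by *Gins4* (15.9), *Rrm2* (13.8) and *Mcm4* (12.02). The lowest levels per kb were those of *Fen1* (0.518), *Orc1* (0.810), *Mcm10* (0.882) and *Cdc6* (1.09). Of the exon bases of *Fen1*, 84.2% are shared with genes on the opposite strand, so its level depends on how reads there were assigned. The 6 subunits of the helicase ring were between 5.41 (*Mcm2*) and 12.02 (*Mcm4*) CPM per kb. That spread depends on the length used, which was 6956 bases for *Mcm2* and 3589 for *Mcm4*. Before the division these 2 genes were at 37.7 and 43.1 CPM over the 4 libraries.

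**Figure D2:**
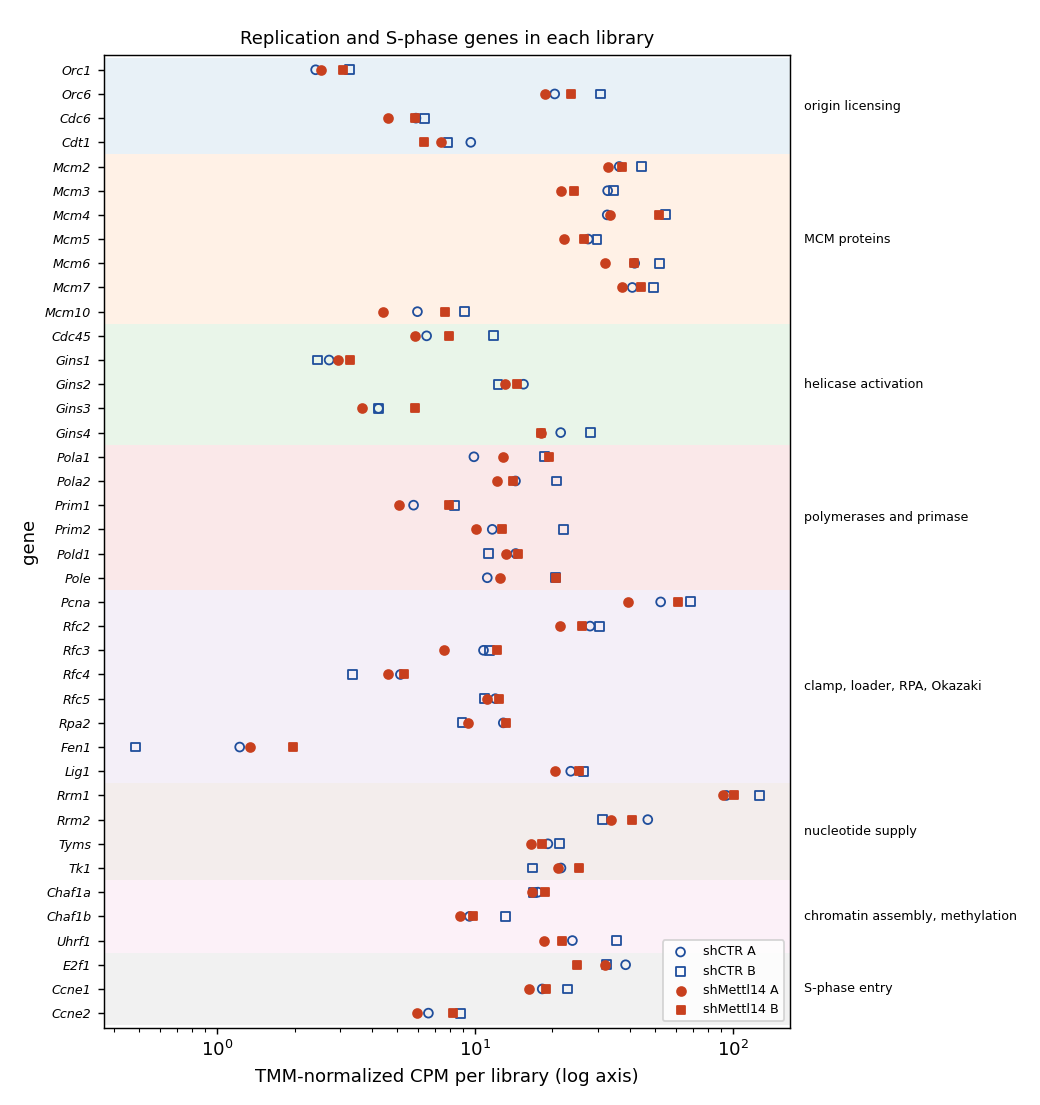
Level of each gene in each library, as TMM-normalized CPM on a log axis (x), with genes in rows grouped by role (y). Open blue points are shCTR and filled red points shMettl14, with circles for A and squares for B; shMettl14 A holds the lowest point in 25 rows and shCTR B the highest in 24.

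None of the 40 genes had an adjusted p under 0.05 for shMettl14 against shCTR (background 0%), and every adjusted p was 1 in edgeR. The fitted differences were small and mostly downward. The median log2 fold change was -0.18, against 0.0094 over all tested genes. Of the 40 genes, 29 were lower and 11 higher, whereas 9230 of all 18916 tested genes were lower and 9686 higher. Within letter A the median log2 ratio was -0.19 and within letter B it was -0.14. The ratio was below 0 in both letters for 24 genes (60%, background 27.6%) and above 0 in both for 4 genes (10%, background 30%: *Gins1*, *Pola1*, *Pole* and *Fen1*). The letters differed in sign for the other 12. Both shMettl14 libraries were below both shCTR libraries for 11 genes (27.5%, background 13.3%) and above both for 2 (5%, background 14.7%: *Gins1* and *Fen1*). A single gene, *Mcm3*, was lower at an unadjusted p under 0.05 (background 1.01%) and 0 were higher (background 0.656%). The number lower was 0 with DESeq2, with upper-quartile factors and with no filter. With the letter as a replicate block it was larger, as given in the closing section on processing.

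The median moved when 1 library was left out, and it turned sign only without shMettl14 A (0.018). It was -0.049 without shCTR B, -0.29 without shCTR A and -0.31 without shMettl14 B. Those fits had no term for the letter, so the groups then also differed in their letters. The lowest of the 4 levels was in shMettl14 A for 25 genes (19.6% of all tested genes had their lowest level there), in shCTR B for 9, in shCTR A for 4 and in shMettl14 B for 2. The highest was in shCTR B for 24 genes (28.6% of all tested genes), in shMettl14 B for 12, in shCTR A for 4 and in shMettl14 A for 0. Over the 40 genes the summed level was 816 and 968.1 CPM in shCTR A and B and 702.8 and 856.7 CPM in shMettl14 A and B, so shMettl14 B lay between the shCTR libraries. With 2 libraries against 2, an exact permutation test of a single value cannot go below a two-sided p of 0.333. The precision also bounds what could be seen in the edgeR fit of the hairpin alone, without the letter. The standard errors, intervals and unadjusted p-values by gene below are from that fit. The 95% interval of the log2 fold change lay within 1 unit either side of 0 for 21 of the 40 genes and reached beyond it for the rest, and the median SE was 0.28.

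**Figure D3:**
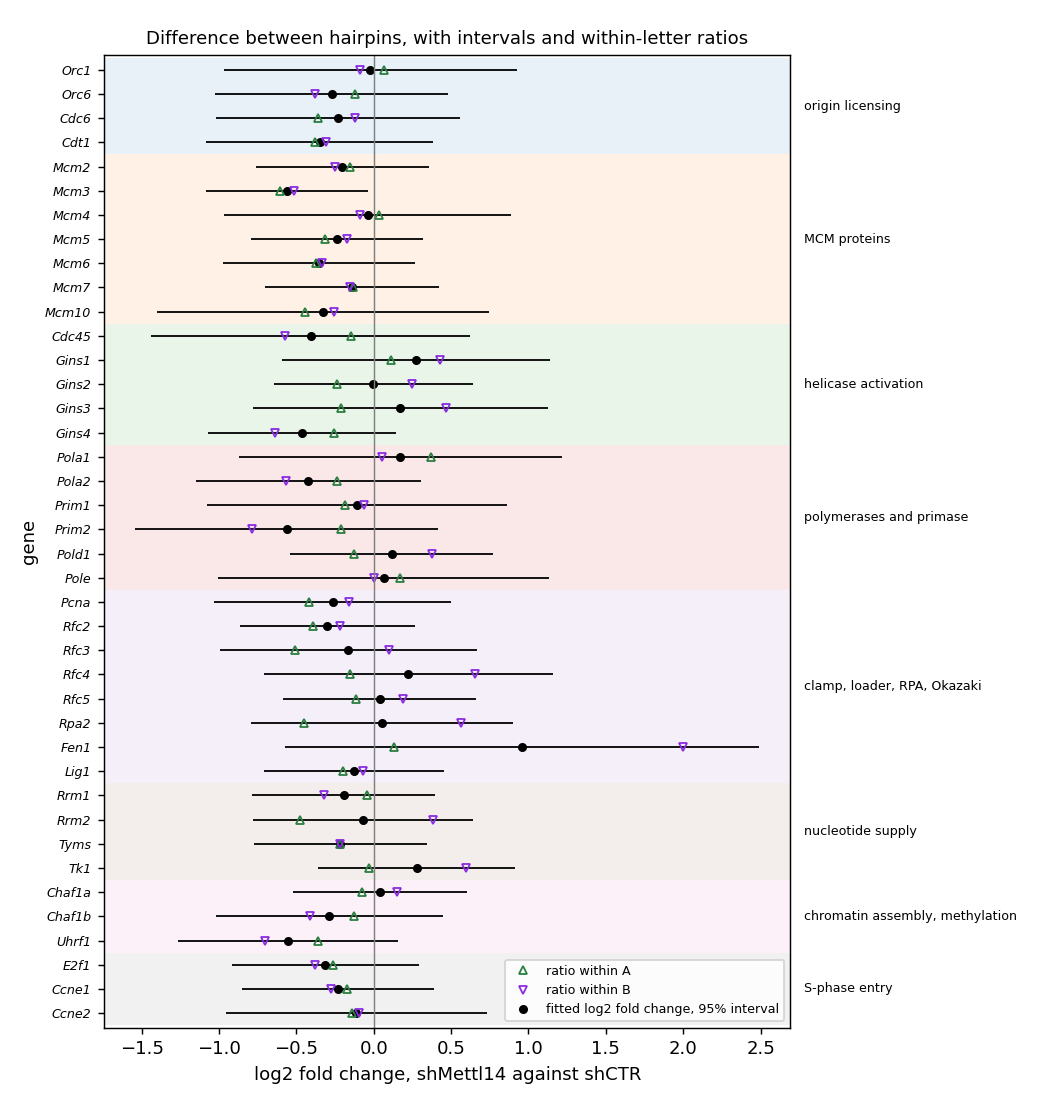
Fitted log2 fold change of shMettl14 against shCTR (x, black point) with its 95% interval (black line) and the ratios within letter A (green upward triangle) and letter B (purple downward triangle), by gene and role (y). The interval leaves out 0 for *Mcm3* alone among the 40 genes, before any adjustment for the number of genes tested.

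Origin licensing was represented by 4 genes, each with a fitted value below 0 (all tested genes: 9230 of 18916). Their median was -0.25, and 3 of them were lower in both letters (background 27.6%). *Cdt1*, which helps to place the helicase on DNA and is destroyed once S phase begins, had 9.64 and 7.86 CPM in shCTR A and B against 7.40 and 6.34 CPM in shMettl14 A and B. The log2 fold change was -0.35 (SE 0.29, edgeR unadjusted p = 0.28). The shMettl14 levels were both below the shCTR levels, but shMettl14 A was nearer to shCTR B than the shCTR libraries were to each other. *Cdc6*, the ATPase that works with CDT1, had 5.91 and 6.39 CPM against 4.61 and 5.88 CPM, and the groups again did not overlap although shMettl14 B almost reached shCTR A. *Orc6* (20.4 and 30.7 CPM against 18.8 and 23.6 CPM) and *Orc1* (2.41 and 3.27 CPM against 2.53 and 3.07 CPM), subunits of the origin recognition complex, overlapped between the groups, with log2 fold changes of -0.27 and -0.022.

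All 7 MCM genes had a fitted log2 fold change below 0 (all tested genes: 9230 of 18916), with a median of -0.24. Of the 7 MCM genes, 6 were lower in both letters (background 27.6%), and 3 had both shMettl14 libraries below both shCTR libraries (background 13.3%). *Mcm3* (ENSMUSG00000041859, chr1:20802968-20820312, minus strand, GRCm38), which encodes a subunit of the helicase ring and holds 2 E2F words in the stretch printed above, had 32.7 and 34.5 CPM in shCTR A and B against 21.5 and 24.1 CPM in shMettl14 A and B. Its log2 fold change was -0.56 (SE 0.20, 95% interval -1.08 to -0.037, edgeR unadjusted p = 0.040, adjusted p = 1). The ratio was -0.61 within A and -0.52 within B, and both shMettl14 libraries lay well below both shCTR libraries.

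*Mcm6*, which carries 3 E2F words, had 41.7 and 52.0 CPM in shCTR against 32.1 and 41.3 CPM in shMettl14 (log2 fold change -0.35, SE 0.24), so shMettl14 B nearly reached shCTR A. *Mcm5* had 27.5 and 29.8 CPM against 22.1 and 26.5 CPM (-0.24, SE 0.22), again without overlap and with a narrow gap. *Mcm2* (36.3 and 44.3 against 32.7 and 37.3 CPM, log2 fold change -0.20) and *Mcm7* (40.8 and 49.1 against 37.2 and 44.2 CPM, -0.14) were lower within each letter, but shMettl14 B was above shCTR A. *Mcm4*, in the same ring, had 32.6 and 54.8 CPM against 33.5 and 51.6 CPM, a log2 fold change of -0.040. For *Mcm4* the letters were far apart and the hairpins close together. *Mcm10*, which is not part of the ring and joins the helicase when it is switched on, had 5.99 and 9.12 CPM against 4.39 and 7.64 CPM (-0.33, SE 0.42).

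The genes of helicase activation did not share a direction. *Gins4* and *Cdc45* were lower within both letters, *Gins1* was higher within both, and *Gins2* and *Gins3* went down within A and up within B. *Gins4*, a subunit of the GINS complex, had 21.5 and 28.2 CPM in shCTR A and B against 18.02 and 18.08 CPM in shMettl14 A and B (log2 fold change -0.46, SE 0.24, edgeR unadjusted p = 0.11). The groups did not overlap, and the shCTR libraries were further apart than shCTR A was from shMettl14. *Cdc45*, which the GINS complex holds on the helicase, had 6.50 and 11.8 CPM against 5.88 and 7.93 CPM, so that shCTR B stood above the other libraries.

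*Gins1*, of the same complex as *Gins4*, had 2.72 and 2.44 CPM in shCTR against 2.95 and 3.29 CPM in shMettl14, a log2 fold change of 0.27 (SE 0.34), on 264 to 428 counts per library. *Gins3* had 4.23 and 4.24 CPM against 3.65 and 5.87 CPM (0.17), with the shMettl14 libraries on either side of the shCTR libraries. *Gins2* (15.4 and 12.3 against 13.1 and 14.6 CPM) was at -0.0014. Of its exon bases, 67.3% are shared with *Gse1* on the opposite strand, and the sources do not state whether the counting used strand, so part of its counts may belong to *Gse1*.

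Among the polymerase genes, 3 were lower within both letters (background 27.6%) and belong to the primer-making complex, in which DNA polymerase alpha is joined to primase. *Prim2*, the large primase subunit, had 11.7 and 22.0 CPM in shCTR A and B against 10.1 and 12.8 CPM in shMettl14 A and B, the fitted log2 fold change furthest below 0 of all 40 genes (-0.56, SE 0.38, edgeR unadjusted p = 0.20). Here shCTR A lay between the shMettl14 libraries and shCTR B stood apart, and without shCTR B the log2 fold change was -0.037. *Pola2*, the accessory subunit of polymerase alpha, had 14.4 and 20.8 CPM against 12.2 and 14.0 CPM (-0.42, SE 0.28) without overlap. *Prim1*, the catalytic primase subunit, had 5.78 and 8.30 CPM against 5.09 and 7.97 CPM (-0.11). *Pola1*, the catalytic subunit of the same complex, had 9.91 and 18.6 CPM against 12.8 and 19.4 CPM (0.17) and was higher within both letters. For the replicative polymerases, *Pole* (epsilon) had 11.2 and 20.5 CPM against 12.6 and 20.6 CPM (0.064), and *Pold1* (delta) had 14.4 and 11.3 CPM against 13.2 and 14.6 CPM (0.12). Neither separated the groups.

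The clamp, its loader and the genes of Okazaki fragment processing were split, with 4 of 8 fitted values below 0. *Pcna*, the clamp that tethers polymerases to DNA and a common proliferation marker, had 52.6 and 68.4 CPM in shCTR A and B against 39.3 and 61.3 CPM in shMettl14 A and B (log2 fold change -0.27, SE 0.30, edgeR unadjusted p = 0.41). It was lower within each letter, with shMettl14 B above shCTR A. The processed pseudogene *Pcna-ps2*, 99.2% identical over 781 aligned bases, had 513 and 36 counts in shCTR A and B and 318 and 27 in shMettl14 A and B, beside 4667 to 7976 counts of *Pcna*, so the counts of the copy differed by letter. Copies of *Cdc6* (*Gm9430*), *Rfc5* (*Gm12870*) and *Uhrf1* (*Gm5648*) had 0 to 15 counts in any library, and those of *Mcm7* (*Gm5487*) and *Rrm2* (*Gm48455*) were not analysed here.

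In the clamp loader, *Rfc2* had 28.0 and 30.4 CPM in shCTR against 21.3 and 26.1 CPM in shMettl14 (-0.30, SE 0.22) and did not overlap. *Rfc3* (-0.16), *Rfc4* (0.22) and *Rfc5* (0.039) each went down within A and up within B. *Rpa2*, a subunit of the protein that coats single-stranded DNA, had 12.9 and 8.92 CPM against 9.42 and 13.2 CPM, with ratios of -0.45 within A and 0.57 within B. *Lig1*, the ligase that seals Okazaki fragments, had 23.5 and 26.5 CPM against 20.5 and 25.2 CPM (-0.13).

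*Fen1* (ENSMUSG00000024742, chr19:10199132-10204169, minus strand), the nuclease that trims the flaps of Okazaki fragments, had the value furthest above 0. It had 1.22 and 0.481 CPM in shCTR A and B against 1.34 and 1.98 CPM in shMettl14 A and B, on 139, 52, 159 and 257 counts (log2 fold change 0.96, SE 0.60, edgeR unadjusted p = 0.17). The ratio was 0.13 within A and 2.00 within B, and without shCTR B the log2 fold change was 0.43. Of the exon bases of *Fen1*, 84.2% are shared with *Tmem258* and *Gm10143* on the opposite strand, and how reads there were assigned is not stated. Over 10% of the exon bases were shared with another gene in 9 of the 40 genes (*Orc1*, *Gins2*, *Rfc2*, *Rfc4*, *Rfc5*, *Fen1*, *Chaf1a* and *Ccne2* on the opposite strand, and *Mcm7* over both strands). Without these 9, the median log2 fold change was -0.23, and 21 of 31 genes (67.7%, background 27.6%) were lower within both letters.

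**Figure D4:**
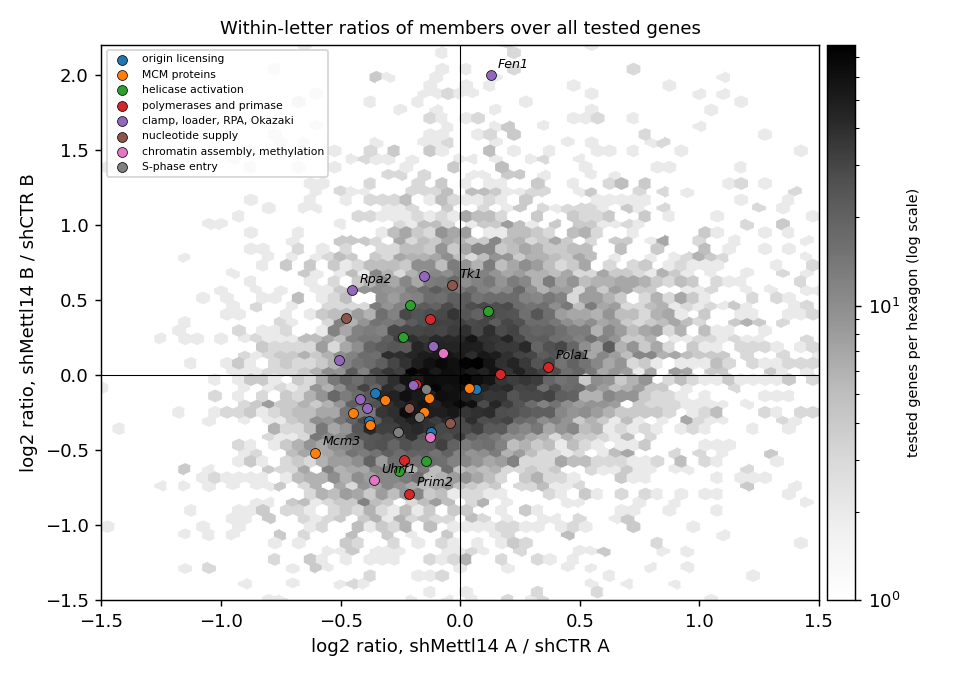
Log2 ratio of shMettl14 to shCTR within letter A (x) and within letter B (y) for the 40 genes, coloured by role, over all tested genes (grey hexagons, log colour scale, values beyond the axes not drawn). The lower left quadrant holds 24 of the 40 points and the upper right 4, and *Fen1* stands apart at 0.13 and 2.00.

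Nucleotide supply was represented by 4 genes, 3 of them with a fitted value below 0. *Rrm1*, the large subunit of ribonucleotide reductase and the member with the most counts in every library, had 94.4 and 126.7 CPM in shCTR A and B against 91.7 and 101.6 CPM in shMettl14 A and B (log2 fold change -0.19, SE 0.23). *Rrm2*, the small subunit whose level follows S phase, had 46.8 and 31.3 CPM against 33.7 and 40.8 CPM, with ratios of -0.48 within A and 0.38 within B. Within letter B the ratio of *Rrm1* was -0.32, so the subunits of this enzyme had ratios of opposite sign there. *Tyms*, thymidylate synthase, had 19.2 and 21.2 CPM against 16.5 and 18.3 CPM (-0.22, SE 0.22), with nearly the same ratio within A (-0.21) and B (-0.22). *Tk1*, thymidine kinase of the salvage route, had 21.6 and 16.7 CPM against 21.1 and 25.3 CPM (0.28, SE 0.25).

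Of the genes that act on new chromatin, *Uhrf1* had a difference near that of *Mcm3*. UHRF1 recognizes hemimethylated DNA behind the fork and recruits the maintenance methyltransferase. Its gene (ENSMUSG00000001228, chr17:56303321-56323486, plus strand) had 23.9 and 35.3 CPM in shCTR A and B against 18.6 and 21.8 CPM in shMettl14 A and B (log2 fold change -0.55, SE 0.28, 95% interval -1.26 to 0.16, edgeR unadjusted p = 0.10). Both shMettl14 levels lay below both shCTR levels, with ratios of -0.36 and -0.70. The genes of chromatin assembly factor 1, which deposits histones on new DNA, were *Chaf1b* with 9.54 and 13.1 CPM against 8.73 and 9.86 CPM (-0.29) and *Chaf1a* with 17.6 and 16.8 CPM against 16.7 and 18.6 CPM (0.040). Of the exon bases of *Chaf1a*, 52.5% are shared with *Ubxn6* on the opposite strand.

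The 3 genes of S-phase entry were each lower within both letters (background 27.6%). *E2f1*, an activating E2F factor, had 38.4 and 32.5 CPM in shCTR A and B against 32.1 and 25.0 CPM in shMettl14 A and B (log2 fold change -0.31, SE 0.24, edgeR unadjusted p = 0.24). The groups did not overlap, but shCTR B and shMettl14 A were almost level. *Ccne1*, one of the cyclins that start S phase, had 18.3 and 22.9 CPM against 16.2 and 18.9 CPM (-0.23, SE 0.24). *Ccne2*, the other cyclin E gene, had 6.60 and 8.77 CPM against 5.99 and 8.23 CPM (-0.11).

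Set against the promoter words, the 13 genes with a word had a median log2 fold change of -0.16 with 10 below 0, and the 19 genes with a window but no word had a median of -0.20 with 13 below 0.

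The libraries also differed by letter. In an edgeR fit with hairpin and letter, the median log2 difference of B against A was 0.25 over the 40 genes. Its size (median 0.28 regardless of sign) exceeded that of the hairpin difference (0.23) in 22 of them. Over all tested genes these median sizes were 0.39 and 0.24, and the letter difference was the larger in 12144 of 18916. For 4 genes the adjusted p was under 0.05 (background 6.69% for higher and 8.95% for lower in B), each higher in B. These were *Pole* (0.79, adjusted p = 0.011), *Mcm4* (0.69, adjusted p = 0.014), *Pola1* (0.75, adjusted p = 0.017) and *Mcm10* (0.70, adjusted p = 0.045), so the share called was 10% of the 40 genes. Of the 40 genes, 28 were higher in B with both hairpins (all tested genes: 6715 of 18916). Only *Cdt1* and *E2f1* were lower in B with both (all tested genes: 6931 of 18916). The other 10 (*Gins1*, *Gins2*, *Pold1*, *Rfc4*, *Rfc5*, *Rpa2*, *Fen1*, *Rrm2*, *Tk1* and *Chaf1a*) were all lower in B with shCTR and higher in B with shMettl14. Those 10 included 8 of the 12 genes whose ratio changed sign between the letters. That overlap is partly built in, since in such genes the ratio within B must be above the ratio within A.

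Marker genes of other cell types also differed between libraries. The summed endothelial level was highest in shCTR B (4097 CPM), where 24 of the 40 genes were highest, and lowest in shMettl14 A (1845 CPM), where 25 were lowest. That order rested in part on *Emcn*, at 648.6 and 2099 CPM in shCTR A and B and 483.7 and 1077 CPM in shMettl14 A and B. Without *Emcn* the other 8 markers summed to 1304 and 1998 CPM in shCTR A and B and to 1362 and 1469 CPM in shMettl14 A and B, so shCTR B was still highest but shCTR A was lowest. Of the 9 endothelial markers, 6 were higher with shMettl14 within letter A and 9 were lower within letter B. The 10 smooth muscle markers summed to 9248 and 9291 CPM in shCTR A and B and to 6787 and 8156 CPM in shMettl14 A and B. Within each letter 8 of them were lower with shMettl14 and 2 were higher. *Acta2* had 3547 and 2799 CPM in shCTR A and B against 2171 and 2073 CPM in shMettl14 A and B. Its log2 fold change was -0.58 (edgeR unadjusted p = 0.038), and it was not called after adjustment.

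Leukocyte markers were low in every library, between 11.2 and 15.3 CPM in sum. Fibroblast and adventitial markers summed to 406 and 405.9 CPM in shCTR A and shMettl14 A and to 208.5 and 173.9 CPM in shCTR B and shMettl14 B. Their abundant members went opposite ways, since *Col14a1* had 321.6 and 318.4 CPM in the A libraries and 37.6 and 44.5 CPM in the B libraries, whereas *Dcn* had 68.3 and 72.3 CPM in A and 159.8 and 120.2 CPM in B. Striated muscle markers summed to 20.4 and 10.7 CPM in shCTR A and B and to 4.21 and 6.64 CPM in shMettl14 A and B. Among these, *Myh4* (edgeR unadjusted p = 0.013), *Ckm* (0.026) and *Actc1* (0.036) were lower with shMettl14, each with an adjusted p of 1. *Myh4* had 625 and 30 counts in shCTR A and B against 0 and 0 in shMettl14 A and B. *Ckm* had 156 and 13 against 0 and 4, and *Actc1* had 103 and 39 against 4 and 20. All 3 were thus highest in shCTR A, and the shMettl14 counts were low. The part of these cell types in the values of the replication genes was not tested.

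The 41 other replication genes, such as the remaining origin recognition and polymerase subunits, had a median log2 fold change of 0.013. Within both letters 10 of them were lower (24.4%, background 27.6%) and 8 higher (19.5%, background 30%), and 0 had an adjusted p under 0.05. Those with the lowest unadjusted p were *Orc5* (-0.69, edgeR unadjusted p = 0.076), an origin recognition subunit, and *Ssrp1* (-0.26, edgeR unadjusted p = 0.30), of the histone chaperone FACT. The 44 other E2F and S-phase genes had a median of -0.015, with 14 lower (31.8%) and 10 higher (22.7%) within both letters, against the same backgrounds. Their lowest unadjusted p-values were those of *E2f4* (-0.48, edgeR unadjusted p = 0.093), a repressing E2F factor, and *Samhd1* (-0.37, edgeR unadjusted p = 0.12), which breaks down deoxynucleotides. The 31 mitosis genes tested, of 32 listed, had a median of -0.073. Within both letters 13 of them were lower (41.9%, background 27.6%) and 4 higher (12.9%, background 30%). *Cdca3* (-0.74, edgeR unadjusted p = 0.079) and *Ube2c* (-0.32, edgeR unadjusted p = 0.30) were lowest in p. As with the 40 genes, these medians moved when 1 library was left out, from -0.20 to 0.18 for the other replication genes, from -0.21 to 0.17 for the other E2F and S-phase genes and from -0.53 to 0.28 for the mitosis genes. Whether the lists differed from the 40 genes was not tested. No gene of these 3 lists had an unadjusted p under 0.05 in that fit.

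For the mitosis genes the median log2 difference of B against A was 0.78, beside 0.25 for the replication genes. At an adjusted p under 0.05 in edgeR, 22 of 31 mitosis genes were higher in B (background 6.69%). The mitosis genes summed to 612.7 and 1081 CPM in shCTR A and B and to 579.9 and 964.4 CPM in shMettl14 A and B. Whether that letter difference exceeded that of the replication genes was not tested.

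**Figure D5:**
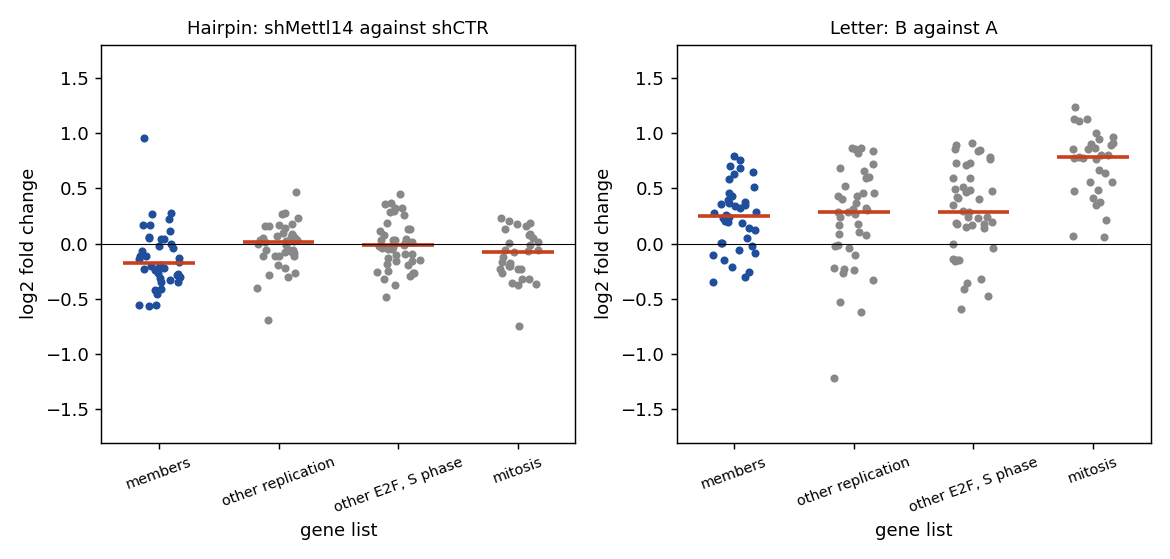
Log2 fold change of each gene (points) for shMettl14 against shCTR (left) and for letter B against letter A in the fit with both terms (right), in the 40 replication and S-phase genes (blue) and 3 further lists (grey), with the median as a red bar. The hairpin medians are -0.18, 0.013, -0.015 and -0.073, and the letter medians 0.25, 0.28, 0.29 and 0.78.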

How the data were processed

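RNA enriched for poly-A was made into strand-specific libraries and sequenced as read pairs. The authors aligned the pairs to mouse GRCm38 (mm10) by STAR, and featureCounts gave reads per gene. The deposited table holds raw counts, 1 column per library. The strand setting, the treatment of reads with several places and the tool versions are not given in the sources used here.

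Counts of 18916 genes that passed filterByExpr were normalized by TMM and fitted in edgeR 4.0.16 (R 4.3.3) with a robust quasi-likelihood test of shMettl14 against shCTR, with Benjamini-Hochberg adjustment over all tested genes and a threshold of 0.05. Standard errors were taken from each gene's fold change and F statistic. Ratios within a letter are differences of log2 CPM with a prior count of 2. The letter was tested in a fit with hairpin and letter. A count of 3, the limit that a count of 0 allows, was 0.024 to 0.0262 CPM, which covers counting error only.

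Gene places and overlaps came from GENCODE M21 on GRCm38. Near-identical copies were sought with blastn 2.17.0 (at least 95% identity over 300 bases), and promoters came from RefSeq on GRCm38.p6. Other steps were run in Python 3.11.15 with pandas 2.3.3.

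The alternatives tried were DESeq2 1.42.0, other size factors (RLE, upper quartile), no filter or a minimum of 10 counts per library, a replicate block and leaving out each library. The members and lists were chosen with earlier results of these data known. The text names *Mettl14*, every member and the 2 genes with the lowest unadjusted p in each further list, since no gene of those lists was called. The cell type markers are given as sums, and those printed singly were picked after their values were seen. Genes that can share reads with a member are named beside it.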

Additional observations from a re-analysis of the deposited data

How the results depend on the processing

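With all 4 libraries, RLE or upper-quartile factors, DESeq2, a replicate block and filters of none or 10 counts per library gave 240 log2 fold changes for the 40 genes. Of these, 236 kept their direction and their side of the threshold, and the 4 that turned were those of *Gins2*, at 0.022 (upper-quartile factors), 0.0098 (no filter), 0.010 (at least 10 counts) and 0.0057 (replicate block). None of these settings gave a replication gene with an adjusted p under 0.05. The number lower at an unadjusted p under 0.05 was 0 with upper-quartile factors, 0 with no filter and 0 with DESeq2. Over all genes, DESeq2 gave 5 adjusted calls. Without the members that overlap other genes, an alternative chosen after seeing the data, the median log2 fold change was -0.23. With E2F words of 7 letters, 64.9% of the windows held one, against 9.57% of all windows.

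With the letter as a replicate block, 6 of the 40 genes (15%, against 5.55% of all tested genes) were lower and 1 (against 4.72%) was higher at an unadjusted p under 0.05, and 9 genes of the whole table had an adjusted p under 0.05. Deviations of libraries of the same letter from their group means correlated at 0.578 over 18916 genes, and the common dispersion was 0.178 without and 0.0418 with the block. The labels do not say that a letter marks a shared culture, and 2 pairs cannot show it.

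Each library was also left out in turn, with the lone library of its group assumed to vary like the other group. The number of replication genes with an unadjusted p under 0.05 was then 0 to 2 for lower (2 without shCTR A, 0 in each of the other 3 fits) and 0 to 1 for higher, and adjusted calls over all genes numbered 0 to 1. The median log2 fold change ranged from -0.31 without shMettl14 B to 0.018 without shMettl14 A. No term for the letter was in these fits, so the groups then also differed in their letters. Of the 40 genes, 19 kept their direction in all 4 of these fits, 16 of them lower and 3 higher. The other 21 turned in at least 1 fit, with log2 fold changes from the lowest to the highest as follows: *Orc1* -0.22 to 0.21, *Orc6* -0.53 to 0.051, *Mcm4* -0.38 to 0.38, *Mcm10* -0.78 to 0.020, *Cdc45* -0.77 to 0.084, *Gins2* -0.16 to 0.18, *Gins3* -0.21 to 0.47, *Pola1* -0.21 to 0.69, *Prim1* -0.46 to 0.18, *Pold1* -0.052 to 0.31, *Pole* -0.33 to 0.56, *Pcna* -0.62 to 0.022, *Rfc3* -0.54 to 0.14, *Rfc4* -0.055 to 0.57, *Rfc5* -0.040 to 0.12, *Rpa2* -0.21 to 0.35, *Lig1* -0.28 to 0.015, *Rrm1* -0.39 to 0.031, *Rrm2* -0.34 to 0.25, *Chaf1a* -0.037 to 0.12 and *Ccne2* -0.35 to 0.10. The least counted value among the 40 genes was 52 counts, above the floor of 3. The causes of these changes were not tested.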
